A study of Mus musculus with 8 samples.

Results

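Circular RNAs (circRNAs) from genes for solute carriers, ion channels and pumps were examined in injured mouse kidney. CircRNAs are closed loops that form when the end of an exon is joined back to the start of the same or an earlier exon of its host gene. The members were chosen by the symbol of the host: solute carriers (Slc), ABC transporters (Abc), P-type and vacuolar ATPases (Atp, without the mitochondrial synthase genes Atp5), potassium channels (Kcn), TRP channels (Trpc, Trpm, Trpv), anoctamins (Ano), chloride channels (Clcn) and calcium channel subunits (Cacn). This gave 182 of the 6315 listed circRNAs, from 94 of the 2841 listed host genes. The rule itself uses the symbol alone, but it was chosen with earlier results of these data known.

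The data are circRNA counts from total RNA of whole kidney of C57BL/6L mice (strain spelled as in the labels) aged 8 to 10 weeks. They comprise 3 libraries after unilateral ureteral obstruction (UUO), in which the outflow of urine is blocked, 2 libraries of an acute-chronic (AC) injury, and 3 control libraries. Injured kidneys were taken at day 5. The design text speaks of ischaemia/reperfusion where the labels say AC, and of sham-operated mice where the titles say wild type, so what was done to the AC and control animals is not settled by the labels. They name no genotype or transgene, and they leave unsaid whether libraries are separate animals. The p-values thus rest on library-to-library spread alone, part or all of which may be technical.

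Library totals ran from 40865 to 65145 counts, and between 3396 and 3811 circRNAs were above 0 in a library. A count of 3 was worth between 56.6 and 87.5 counts-per-million (CPM, scaled to the circRNA counts left after the filter). Of 14 kidney epithelial marker genes, 1 had a listed circRNA (Lrp2, the endocytic receptor of the proximal tubule), and its count ran from 13 to 27 in UUO, from 21 to 26 in AC and from 9 to 92 in control libraries. Of 6 endothelial markers 2 had one (Flt1 and Tek), summing to 1 to 10 counts in UUO, 0 to 9 in AC and 5 to 6 in control libraries. Podocyte, fibroblast, immune and red cell markers had none, so only these 3 genes check the tissue label and the mix of cells. In these whole-kidney libraries fewer cells of a type and less circRNA per cell cannot be told apart.

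As background, the kidney tubule recovers most of what the glomerulus filters. Sodium-potassium pumps in the basolateral membrane keep cell sodium low, and carriers in both membranes use that gradient to move sugars, amino acids, phosphate, bicarbonate and organic ions. Proton pumps of the vacuolar type acidify the urine in intercalated cells and the endosomes of the proximal tubule, and potassium and chloride channels set the membrane voltage. A circRNA is made from the same primary transcript as the linear mRNA of its host, and is usually more stable because it has no free ends. Its count gives the level of the loop, not that of the mRNA or of the transport protein, neither of which was measured here.

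Well-known transport genes of the tubule were mostly not among the hosts. Of 21 named genes of that kind, 6 had a listed circRNA: Slc4a4 with 5, Slc7a8 with 1, Slc8a1 with 3, Abcc4 with 1, Trpm7 with 7 and Ano6 with 3. The other 15 had no row, among them Slc34a1 (the phosphate carrier of the proximal tubule), Slc12a1 and Slc12a3 (the salt carriers of the thick ascending limb and of the distal convoluted tubule), Slc5a2 (a glucose carrier), Slc22a6 (an organic anion carrier) and Kcnj1 (a potassium channel of the distal nephron). Among the 669 coding genes of the same symbols in RefSeq, 95 (14.2%) hosted a listed circRNA, against 12.8% of 21231 other coding genes. The 95 include Slc18b1, which the counts list under the older name 1110021L09Rik and which is therefore not among the 94 hosts.

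Most members were rare. The median member had 13.5 counts over all 8 libraries, close to the 14 of all listed circRNAs. Of the 182, 24 had a single count in all and 78 had fewer than 10. In 48 cases only 1 library was above 0, and 30 members were above 0 in all 8. Members above 0 in UUO libraries only numbered 31, those in AC libraries only 10 and those in control libraries only 15. All 3 groups were above 0 for 95 members. The same split over all listed circRNAs was not counted, and AC has 2 libraries against 3. These numbers therefore do not set members apart from other circRNAs. The filter on low counts kept 35 members, from 30 hosts, for testing. They held 72.9% of the 7322 member counts, and the 147 untested members are described by their counts only. The column for experimental evidence, whose content was not used, was filled for 22 members and for 1084 of all listed circRNAs.

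Counts were concentrated in few hosts and, within a host, usually in 1 loop. The 10 hosts of highest count held 50.7% of member counts. Of the 43 hosts with at least 2 listed circRNAs, 33 had over 50% of their counts in 1 of them. Atp6v1h had the most listed circRNAs, 10, and 51 hosts had 1. The 10 most abundant members came from Slc7a8, Atp6v0a4, Atp6v1h, Abcc4, Atp9a, Trpm7, Slc20a2, Atp6v1c1, Cacna1c and Slco3a1.

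Members as a whole took a slightly lower share of the counts in UUO kidneys. Their summed share was 1.68% ± 0.0519 in UUO (SD, n = 3), 1.75% ± 0.0895 in AC (n = 2) and 1.88% ± 0.0752 in control libraries (n = 3). The UUO and control libraries did not overlap. Without the single Slc7a8 circRNA they overlapped, with 15593 to 16589 CPM of all circRNA counts in UUO, 15993 to 17178 in AC and 16352 to 17883 in control libraries.

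Tested one by one, few members changed. In UUO against control, 1 of 35 tested members passed (2.86%), the Slc7a8 circRNA, which was lower. Over all 1471 tested circRNAs 4.35% passed in that comparison, 2.86% higher and 1.5% lower. In AC against control 1 of 35 passed (2.86%), a Slc4a4 circRNA, also lower, against 3.33% over all tested circRNAs (1.9% higher, 1.43% lower). With counts summed per host, 3 of 36 member hosts passed in UUO (8.33%), Kcnt2 higher and Slc7a8 and Slc8a1 lower, against 6.5% of all 1185 tested hosts (3.71% higher, 2.78% lower). In AC no member host passed by edgeR, against 3.46% of all hosts (2.03% higher, 1.43% lower), and DESeq2 also called 0. All these are calls of edgeR's quasi-likelihood test at a Benjamini-Hochberg adjusted p under 0.05.

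At an unadjusted p under 0.05, 7 members stood out in UUO (20%, with 15.5% over all tested circRNAs). Of these 3 were higher and 4 lower, with 8.29% and 7.21% over all. In AC there were 8 (22.9%, with 14.1% over all), 3 higher and 5 lower, with 6.93% and 7.14% over all. Of the host sums 9 of 36 stood out in UUO (25%, with 19.5% of all hosts), 3 higher and 6 lower, with 9.7% and 9.79% of all hosts. In AC 9 of 36 did (25%, with 15% of all hosts), 4 higher and 5 lower, with 7.26% and 7.76% of all hosts. The libraries of both groups did not overlap for 13 members in UUO (37.1%, with 24.3% over all) and for 13 in AC (37.1%, with 30.7% over all). The tested members had a median log2 fold change of -0.14 in UUO (13 positive, 22 negative), against 0.016 over all tested circRNAs. In AC it was -0.17 (15 positive, 20 negative), against -0.015 over all. The comparisons with UUO and with AC share the 3 control libraries.

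**Figure D1:**
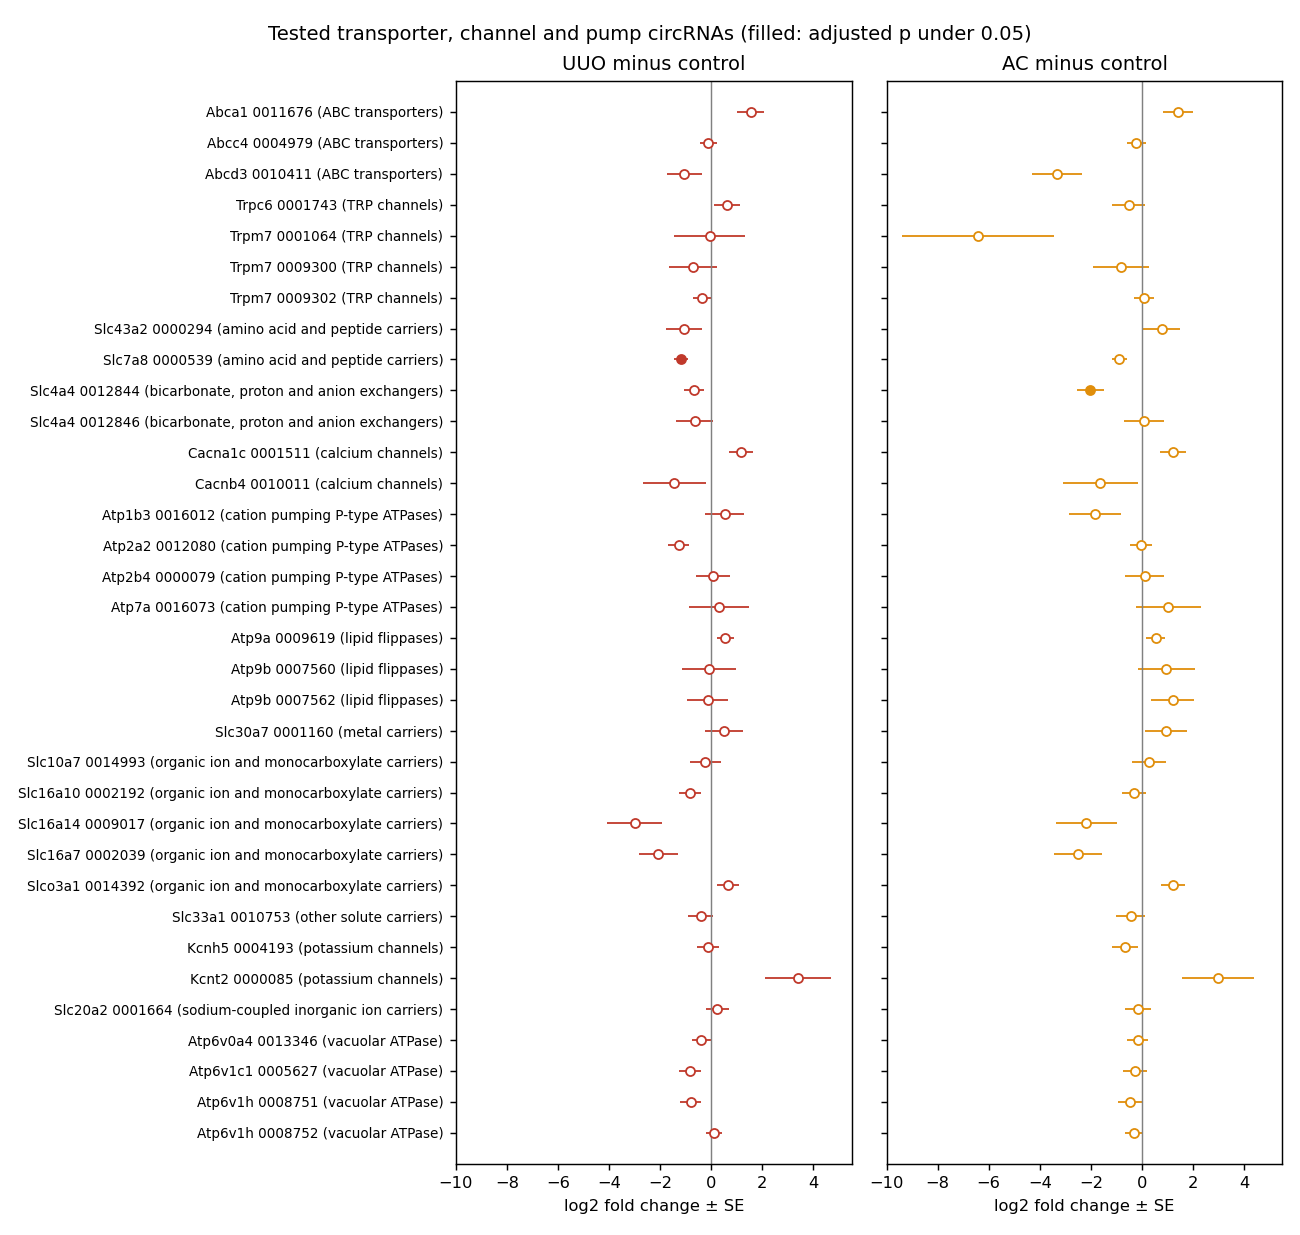
Log2 fold change with its standard error (SE, horizontal lines) of the 35 tested members but for 1 that is not shown, UUO minus control on the left and AC minus control on the right, ordered by the role of the host; numbers are the last digits of the circRNA names. Filled points passed the threshold: Slc7a8 in UUO (-1.20) and Slc4a4 mmu_circ_0012844 in AC (-2.02). The point of Trpm7 mmu_circ_0001064 in AC is a fitted value of a circRNA at 0 in both AC libraries and gives no size.

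Amino acid carriers were led by Slc7a8, the most abundant member. It encodes LAT2, an exchanger of neutral amino acids in the basolateral membrane of the proximal tubule. Its circRNA mmu_circ_0000539 had 31, 32 and 50 counts in UUO, 43 and 39 in AC, and 69, 97 and 110 in control libraries. Every injured library lay under every control library. The level was 861 ± 164 CPM in UUO (SD, n = 3), 1075 ± 88.1 in AC (n = 2) and 1980 ± 255 in control libraries (n = 3).

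The Slc7a8 circRNA fell 2.29-fold in UUO (log2 fold change -1.20, SE 0.27, edgeR adjusted p = 0.0245). In AC it was 1.84-fold lower without passing (-0.88, SE 0.31, adjusted p = 0.175). UUO and AC differed by -0.31 (SE 0.31, edgeR adjusted p = 0.94). Leaving out a library ended the UUO call in 4 of 8 cases. The edgeR adjusted p was then 0.0845, 0.112 and 0.0556 without UUO replicates 1, 2 and 3, and 0.0837 without control replicate 3. As a host sum over the host table, in which it is the only circRNA of its gene, it also passed in UUO (-1.25, edgeR adjusted p = 0.00943), and not without UUO replicate 1 (0.0565), UUO replicate 2 (0.0649) or control replicate 3 (0.0642). Lrp2, the marker of the same tubule segment, also had a negative log2 fold change in UUO that did not pass (-0.97, edgeR adjusted p = 0.401). Its groups overlapped, at 685, 584 and 273 CPM in UUO and 239, 1736 and 972 CPM in control libraries. Control replicate 1 lay under every UUO library. Its part in the Slc7a8 result was not tested.

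The other amino acid carriers were less abundant and did not pass. Slc43a2, an exporter of neutral amino acids (LAT4), had 10, 3 and 6 counts of mmu_circ_0000294 in UUO, 29 and 13 in AC, and 2, 26 and 18 in control libraries. The UUO libraries lay within the control range, and AC replicate 1 lay above every control. Slc38a10, of the same broad class and named after its values were seen, had 3 listed circRNAs that were tested only as a sum. That sum was 0, 1 and 5 in UUO, 15 and 23 in AC, and 2, 4 and 1 in control libraries. Both AC libraries were above all others, but the difference from control did not pass (log2 fold change 3.24, SE 1.12, edgeR adjusted p = 0.142). Of the 23 in AC replicate 2, 14 came from mmu_circ_0002829, which was at 0 in all other libraries.

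Bicarbonate and proton exchangers included Slc4a4, which encodes NBCe1, the sodium bicarbonate carrier that returns bicarbonate to blood from the proximal tubule. It had 5 listed circRNAs, and mmu_circ_0012844 was the most abundant. That circRNA had 23, 15 and 21 counts in UUO, 10 and 4 in AC, and 33, 38 and 30 in control libraries. The 3 groups did not overlap, with AC lowest and control highest. Its level was 458 ± 118 CPM in UUO, 176 ± 84.1 in AC and 738 ± 130 in control libraries (SD).

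In AC mmu_circ_0012844 fell 4.05-fold (log2 fold change -2.02, SE 0.51, edgeR adjusted p = 0.0400). In UUO it was 1.61-fold lower without passing (-0.68, SE 0.40, adjusted p = 0.439). UUO minus AC was 1.33 (SE 0.52), which did not pass (edgeR adjusted p = 0.816). The AC call did not survive leaving out any of the 8 libraries, the adjusted p then lying between 0.0589 and 0.261. It was also lost with no filter (0.0773), with only AC and control libraries (0.104) and by limma-voom (0.245).

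Other Slc4a4 circRNAs were uneven. In AC mmu_circ_0012846 had 17 and 7 counts and mmu_circ_0012840 had 5 and 13. Control libraries had 6, 31 and 5 counts of mmu_circ_0012846 and 3, 5 and 2 counts of mmu_circ_0012840. Both AC libraries lay within or above the control range for these, while mmu_circ_0012845 had 4 and 0 counts in AC against 3, 15 and 8 in control libraries. The share of mmu_circ_0012844 among all Slc4a4 counts was 50.8% ± 8.62 in UUO, 20.8% ± 5.89 in AC and 53.4% ± 10.7 in control libraries (SD). That share did not pass its own test in AC (edgeR's test of circRNA use within a host, adjusted p = 0.996). Of all 705 circRNAs that could be tested in this way 0.142% passed in AC, and none of the 9 members did by edgeR. At an unadjusted p under 0.05 there was 1 of the 9, a Trpm7 circRNA, with 2.7% over all. The Slc4a4 sum was 38, 34 and 44 in UUO, 40 and 24 in AC, and 52, 90 and 55 in control libraries. Both injuries lay under all controls, and neither difference passed (UUO -0.71, SE 0.31, edgeR adjusted p = 0.200; AC -0.80, SE 0.36, adjusted p = 0.283).

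**Figure D2:**
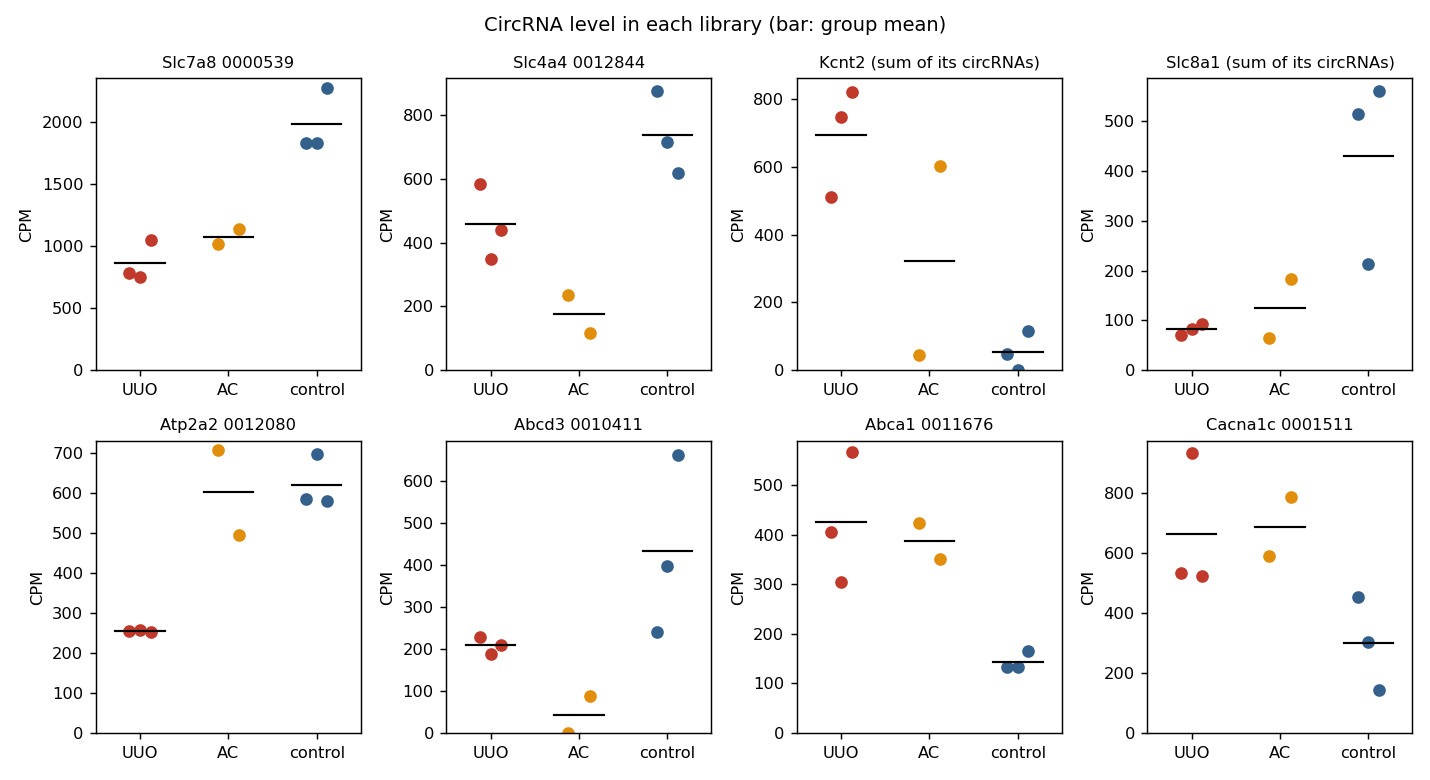
CPM (vertical axis, from 0) of 6 member circRNAs and 2 host sums in each UUO, AC and control library; points are libraries and bars group means. Slc7a8 lies between 747 and 1050 in UUO and between 1831 and 2274 in control libraries, and Kcnt2 in the 3 UUO libraries lies above all control libraries.

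Potassium channel hosts were 12, with 24 listed circRNAs, and the change was in Kcnt2. It encodes a potassium channel opened by sodium inside the cell (Slick, KNa1.2). Its 6 circRNAs summed to 22, 36 and 44 counts in UUO, 2 and 23 in AC, and 2, 0 and 6 in control libraries. All 3 UUO libraries were above all controls, and the AC libraries differed between themselves. The level of the sum was 693 ± 161 CPM in UUO, 323 ± 395 in AC and 55.0 ± 58.2 in control libraries (SD).

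The Kcnt2 sum rose 12.3-fold in UUO (log2 fold change 3.62, SE 0.80, edgeR adjusted p = 0.00874). The control sum is 8 counts, and without control replicate 2 the log2 fold change was 3.002 and without control replicate 3 it was 4.89. Without UUO replicate 3 the adjusted p was 0.0505, and by limma-voom it was 0.0782. In AC the sum was 5.58-fold higher without passing (2.48, SE 0.90, adjusted p = 0.155). That value rests on AC replicate 2: without it the log2 fold change in AC was -0.32. Without AC replicate 1 it was 3.42 (edgeR adjusted p = 0.0307), but AC is then 1 library, assumed to vary as the other groups do. UUO minus AC was 1.14 (SE 0.76, adjusted p = 0.819).

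Several Kcnt2 circRNAs contributed. The most abundant, mmu_circ_0000085, had 7, 15 and 21 counts in UUO, 0 and 17 in AC, and 0, 0 and 4 in control libraries. Alone it did not pass (UUO 3.38, SE 1.30, edgeR adjusted p = 0.176). The next, mmu_circ_0008236, had 3, 5 and 9 counts in UUO, 2 and 0 in AC, and 2, 0 and 0 in control libraries. Of the other 4, mmu_circ_0008232 had 13 counts in UUO, 6 in AC and 0 in control libraries. It was at 0 in UUO replicate 1 and AC replicate 1 as well. Its UUO level was at least 4.64-fold higher against a floor of 3 counts over the control group. This bound takes the UUO counts as exact and leaves out the spread between libraries. With mmu_circ_0000085 left out, the sum of the rest still passed in UUO (3.78, edgeR adjusted p = 0.0293), a check chosen after the data had been seen.

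Without Kcnt2 the UUO and control libraries of the potassium channel hosts overlapped. They summed to 727 ± 40.6 CPM of all circRNA counts in UUO, 678 ± 9.71 in AC and 673 ± 134 in control libraries (SD). With Kcnt2 the sums were 1373 ± 127 in UUO, 980 ± 379 in AC and 723 ± 117 in control libraries. Kcnh5, a voltage-gated potassium channel named after its values were seen, had the only other tested circRNA of these hosts, mmu_circ_0004193. It had 14, 18 and 24 counts in UUO, 14 and 9 in AC, and 12, 35 and 20 in control libraries, and did not pass (UUO -0.13, SE 0.44, edgeR adjusted p = 0.922).

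**Figure D3:**
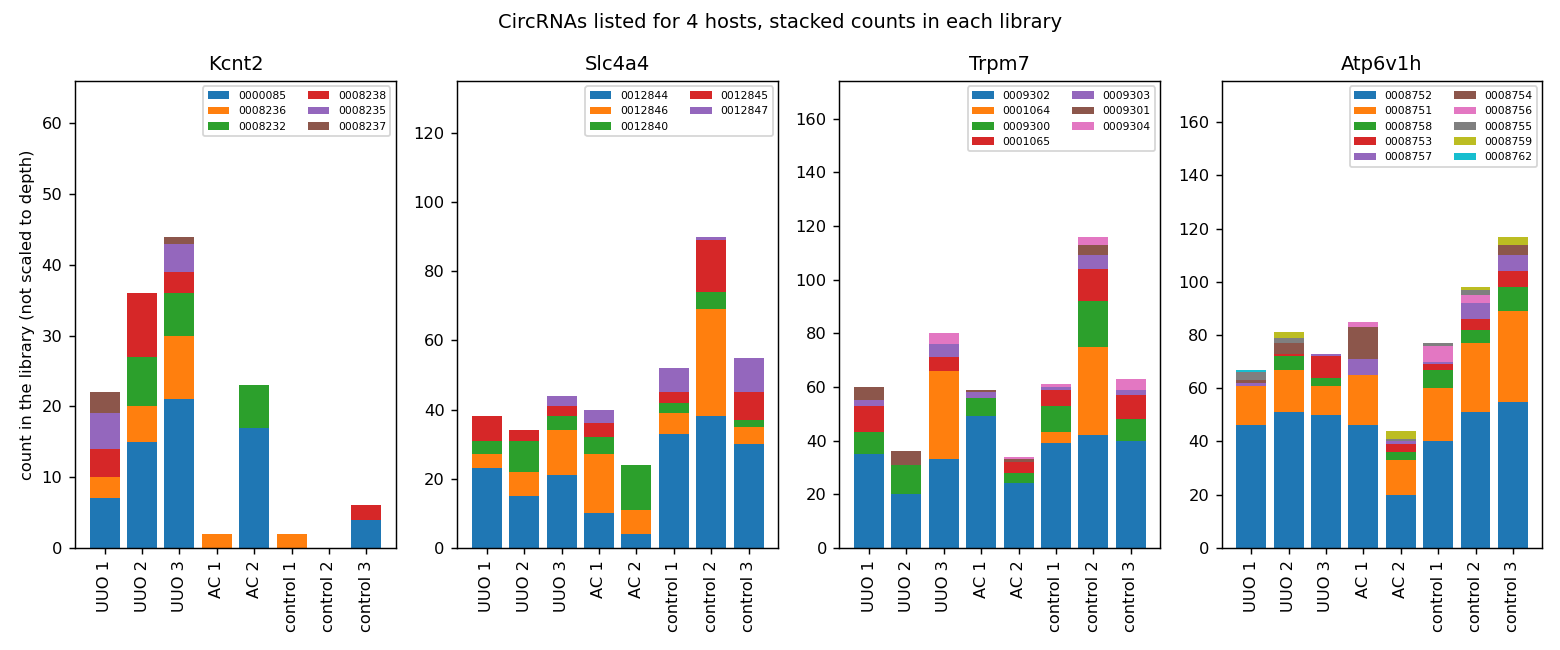
Stacked counts of every listed circRNA of Kcnt2 (6), Slc4a4 (5), Trpm7 (7) and Atp6v1h (10) in each library, not scaled to depth; colours are circRNAs, named by the last digits of their names. Kcnt2 counts sit mostly in the UUO libraries and AC replicate 2, and mmu_circ_0012844 of Slc4a4 takes 10 and 4 counts in AC.

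Of the genes of calcium and sodium transport, Slc8a1 passed the test. Slc8a1 encodes NCX1, the sodium-calcium exchanger, which takes part in calcium recovery in the distal nephron. Its 3 circRNAs were each too rare to test. Their sum was 3, 4 and 5 in UUO, 3 and 7 in AC, and 21, 12 and 29 in control libraries. Every injured library was under every control library. The sum fell 5.05-fold in UUO, just inside the threshold (log2 fold change -2.34, SE 0.70, edgeR adjusted p = 0.0499). It ceased to pass when any UUO library was left out, with adjusted p = 0.144 without replicate 1, 0.145 without replicate 2 and 0.144 without replicate 3. Without control replicate 1 or control replicate 3 it was under the filter and gave no value. Of 15 alternatives 4 kept the call. Among those that ended it were RLE factors (adjusted p = 0.0535), library size alone (0.0586), no filter (0.0720), a minimum count of 20 (0.104), DESeq2 (0.0542), limma-voom (0.210) and sums without the most abundant circRNA of each host (0.380). In AC the sum was 3.45-fold lower without passing (-1.79, SE 0.79, edgeR adjusted p = 0.283). Within the sum mmu_circ_0007052 had 2 counts in UUO against 25 in control libraries, a ratio of 11.7 after scaling to depth, with an exact binomial 95% interval of 2.91 to 102 that covers counting error only.

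Atp2a2 encodes SERCA2, the pump that refills the calcium store of the endoplasmic reticulum. Its circRNA mmu_circ_0012080 had 10, 11 and 12 counts in UUO, 30 and 17 in AC, and 22, 37 and 28 in control libraries. The UUO libraries were under all others, at 254 ± 2.49 CPM against 601 ± 149 in AC and 621 ± 67.3 in control libraries (SD). The difference from control did not pass (-1.28, SE 0.40, edgeR adjusted p = 0.083), and that between AC and control was -0.04 (SE 0.42). UUO minus AC was -1.24 (SE 0.44, adjusted p = 0.816).

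Cacna1c encodes the pore of the L-type calcium channel Cav1.2. Its main circRNA, mmu_circ_0001511, had 21, 40 and 25 counts in UUO, 25 and 27 in AC, and 17, 16 and 7 in control libraries. Both injuries were above all controls once scaled to depth, at 664 ± 234 CPM in UUO, 688 ± 140 in AC and 300 ± 154 in control libraries (SD). Neither difference passed (UUO 1.16, SE 0.45, edgeR adjusted p = 0.183; AC 1.21, SE 0.50, adjusted p = 0.272). The sum over all 5 Cacna1c circRNAs was 21, 50 and 32 in UUO, 28 and 32 in AC, and 18, 17 and 8 in control libraries, and did not pass either (UUO 1.26, SE 0.44, edgeR adjusted p = 0.103; AC 1.28, SE 0.49, adjusted p = 0.185).

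Slc20a2 encodes the sodium-phosphate carrier PiT2. Its circRNA mmu_circ_0001664 had 49, 22 and 24 counts in UUO, 36 and 9 in AC, and 22, 36 and 31 in control libraries. The groups overlapped (UUO 0.23, SE 0.45; AC -0.17, SE 0.51). Atp1b3, a beta subunit of the sodium-potassium pump, had 16, 10 and 10 counts in UUO, 2 and 2 in AC, and 6, 5 and 16 in control libraries. AC was lowest, and neither AC minus control (-1.84, SE 1.02, edgeR adjusted p = 0.459) nor UUO minus AC (2.37, SE 1.02, adjusted p = 0.816) passed.

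Of the tested members, Slc16a14 and Slc16a7, of the monocarboxylate carrier family, had the most negative fold changes in UUO. Neither passed edgeR's test. Slc16a7 encodes MCT2, a carrier of lactate and pyruvate. Its circRNA mmu_circ_0002039 had 5, 5 and 7 counts in UUO, 0 and 7 in AC, and 10, 53 and 19 in control libraries. Both injuries lay under all controls, of which replicate 2 was far the highest. The fold changes did not pass (UUO -2.07, SE 0.76, edgeR adjusted p = 0.159; AC -2.50, SE 0.94, adjusted p = 0.215).

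Slc16a14, of the same family, had 1, 0 and 5 counts of mmu_circ_0009017 in UUO, 1 and 5 in AC, and 11, 11 and 31 in control libraries. Both injuries again lay under all controls (UUO -3.00, SE 1.06, edgeR adjusted p = 0.139; AC -2.18, SE 1.18, adjusted p = 0.445). DESeq2 called the UUO difference (adjusted p = 0.0428). As host sums neither gene passed in UUO (Slc16a7 -2.14, edgeR adjusted p = 0.0987; Slc16a14 -3.06, adjusted p = 0.0808). Leaving out 1 library moved the adjusted p to between 0.0430 and 0.515 for Slc16a7 and between 0.0459 and 0.229 for Slc16a14. It was under the threshold for both genes without AC replicate 1 (0.0430 and 0.0459) or AC replicate 2 (0.0476 for both). The Slc16a7 value was -1.36 without control replicate 2, and the Slc16a14 value was -4.67 without UUO replicate 3. In AC the Slc16a7 sum had an adjusted p of 0.152, and 0.0354 without AC replicate 2, when AC is 1 library at 0 and is assumed to vary as the other groups do.

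Slc16a10, a carrier of aromatic amino acids (TAT1), had 9, 17 and 13 counts in UUO, 17 and 16 in AC, and 18, 24 and 33 in control libraries. UUO lay under control without passing (-0.84, SE 0.43, edgeR adjusted p = 0.381). Slco3a1, an organic anion carrier, differed the other way. It had 17, 29 and 24 counts of mmu_circ_0014392 in UUO, 34 and 27 in AC, and 6, 26 and 17 in control libraries. AC was above all controls without passing (1.21, SE 0.47, edgeR adjusted p = 0.232).

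ABC transporters had 11 listed circRNAs, of which 3 were tested. Abcd3 encodes a transporter of fatty acids into peroxisomes. Its circRNA mmu_circ_0010411 had 9, 8 and 10 counts in UUO, 0 and 3 in AC, and 9, 21 and 32 in control libraries. Once scaled to depth the 3 groups did not overlap, with AC lowest. In AC the ratio of control to AC was 11.4 with an interval of 3.73 to 56.8 for counting error, and the test did not pass (-3.33, SE 0.97, edgeR adjusted p = 0.0855). As a host sum it did not pass in AC either (-3.38, edgeR adjusted p = 0.0596). Leaving out 1 library moved that adjusted p to between 0.0391 and 0.311. It was 0.0477 without control replicate 1, and 0.0391 without AC replicate 2, when AC is 1 library at 0, assumed to vary as the other groups do. Without AC replicate 1 the log2 fold change was -2.33.

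Abca1, which exports cholesterol and phospholipid from cells, was higher in both injuries without passing. Its circRNA mmu_circ_0011676 had 16, 13 and 27 counts in UUO, 18 and 12 in AC, and 5, 7 and 8 in control libraries. Every injured library was above every control, at 425 ± 133 CPM in UUO, 387 ± 52.3 in AC and 143 ± 19.0 in control libraries (SD). The log2 fold changes were 1.55 in UUO (SE 0.53, edgeR adjusted p = 0.123) and 1.41 in AC (SE 0.58, adjusted p = 0.271). Abcc4 encodes MRP4, an efflux pump for organic anions and nucleotides. It had 26, 39 and 45 counts in UUO, 28 and 31 in AC, and 37, 57 and 33 in control libraries, with overlapping groups (UUO -0.12, SE 0.32; AC -0.23, SE 0.37).

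The vacuolar proton pump had 15 listed circRNAs from 5 subunit genes and 17.3% of all member counts, more than any other role. Summed, they were lower in UUO, with 2545 to 3006 CPM of all circRNA counts against 2569 to 3398 in AC and 3353 to 3662 in control libraries. UUO and control did not overlap, and the sum itself was not tested. None of its 4 tested circRNAs passed. Their log2 fold changes were negative in 3 of 4 in UUO (median -0.61, with 49.4% negative over all tested circRNAs) and in 4 of 4 in AC (median -0.29, with 50.6% over all).

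Atp6v0a4 encodes the subunit of the membrane sector found in intercalated cells. Its circRNA had 56, 22 and 35 counts in UUO, 45 and 35 in AC, and 59, 59 and 41 in control libraries, with overlapping groups (UUO -0.40, SE 0.37). Atp6v1c1, a subunit of the cytosolic sector, had 8, 25 and 26 counts in UUO, 28 and 23 in AC, and 21, 60 and 33 in control libraries (UUO -0.83, SE 0.42, edgeR adjusted p = 0.374).

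Atp6v1h encodes a regulatory subunit of the cytosolic sector, and 2 of its 10 circRNAs held most counts. The first, mmu_circ_0008752, had 46, 51 and 50 counts in UUO, 46 and 20 in AC, and 40, 51 and 55 in control libraries. The second, mmu_circ_0008751, had 15, 16 and 11 counts in UUO, 19 and 13 in AC, and 20, 26 and 34 in control libraries. The first overlapped between UUO and control, and the second was lower in every UUO library than in any control. The first held 66.7% ± 3.24 of Atp6v1h counts in UUO, 49.8% ± 6.13 in AC and 50.3% ± 2.88 in control libraries (SD). The UUO and control shares did not overlap, and the test within the host did not pass for either circRNA (edgeR adjusted p = 0.999 for both). In UUO none of the 705 circRNAs passed that edgeR test (0%). At an unadjusted p under 0.05 there were 13 (1.84%), none of them a member.

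TRP channels were led by Trpm7, a channel for magnesium and other divalent ions that also carries a kinase. Of its 7 circRNAs mmu_circ_0009302 was the most abundant, with 35, 20 and 33 counts in UUO, 49 and 24 in AC, and 39, 42 and 40 in control libraries. Its groups overlapped (UUO -0.37, SE 0.35; AC 0.08, SE 0.38). Another, mmu_circ_0001064, was patchy, with 0, 0 and 33 counts in UUO, 0 and 0 in AC, and 4, 33 and 0 in control libraries. Of its 70 counts, 66 came from UUO replicate 3 and control replicate 2. With AC at 0 it was at least 6.81-fold lower there than in control, against a floor of 3 counts over the AC group. That bound takes the control counts as exact and leaves out the spread between libraries. The test of mmu_circ_0001064 in AC did not pass (edgeR adjusted p = 0.349), nor did its share of the host (adjusted p = 0.996). The Trpm7 sum was 60, 36 and 80 in UUO, 59 and 34 in AC, and 61, 116 and 63 in control libraries (UUO -0.40, SE 0.31; AC -0.55, SE 0.36).

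Trpc6, a calcium-permeable channel of podocytes among other cells, had 14, 15 and 29 counts in UUO, 7 and 8 in AC, and 12, 8 and 19 in control libraries. UUO was above AC without passing (1.14, SE 0.63, edgeR adjusted p = 0.874). Ano6, a lipid scramblase and ion channel, had 3 circRNAs tested as a sum, which was 10, 5 and 11 in UUO, 10 and 13 in AC, and 6, 16 and 0 in control libraries. Its groups overlapped.

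Lipid flippases, pumps that move phospholipid between membrane leaflets, had 19 listed circRNAs. Atp9a had 5, of which mmu_circ_0009619 held 86.6% of the counts. It had 42, 39 and 42 counts in UUO, 31 and 40 in AC, and 29, 39 and 22 in control libraries (UUO 0.54, SE 0.34, edgeR adjusted p = 0.468). Atp9b had 6 listed circRNAs. Its tested pair, mmu_circ_0007562 and mmu_circ_0007560, were higher in both AC libraries than in any control once scaled to depth, and neither passed (1.21, SE 0.84 and 0.96, SE 1.12). A further Atp9b circRNA, mmu_circ_0007559, had 0 counts in all UUO libraries, 2 and 0 in AC, and 8, 3 and 9 in control libraries. Against a floor of 3 counts over the UUO group it was at least 6.23-fold lower there. That bound takes the control counts as exact and leaves out the spread between libraries.

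**Figure D4:**
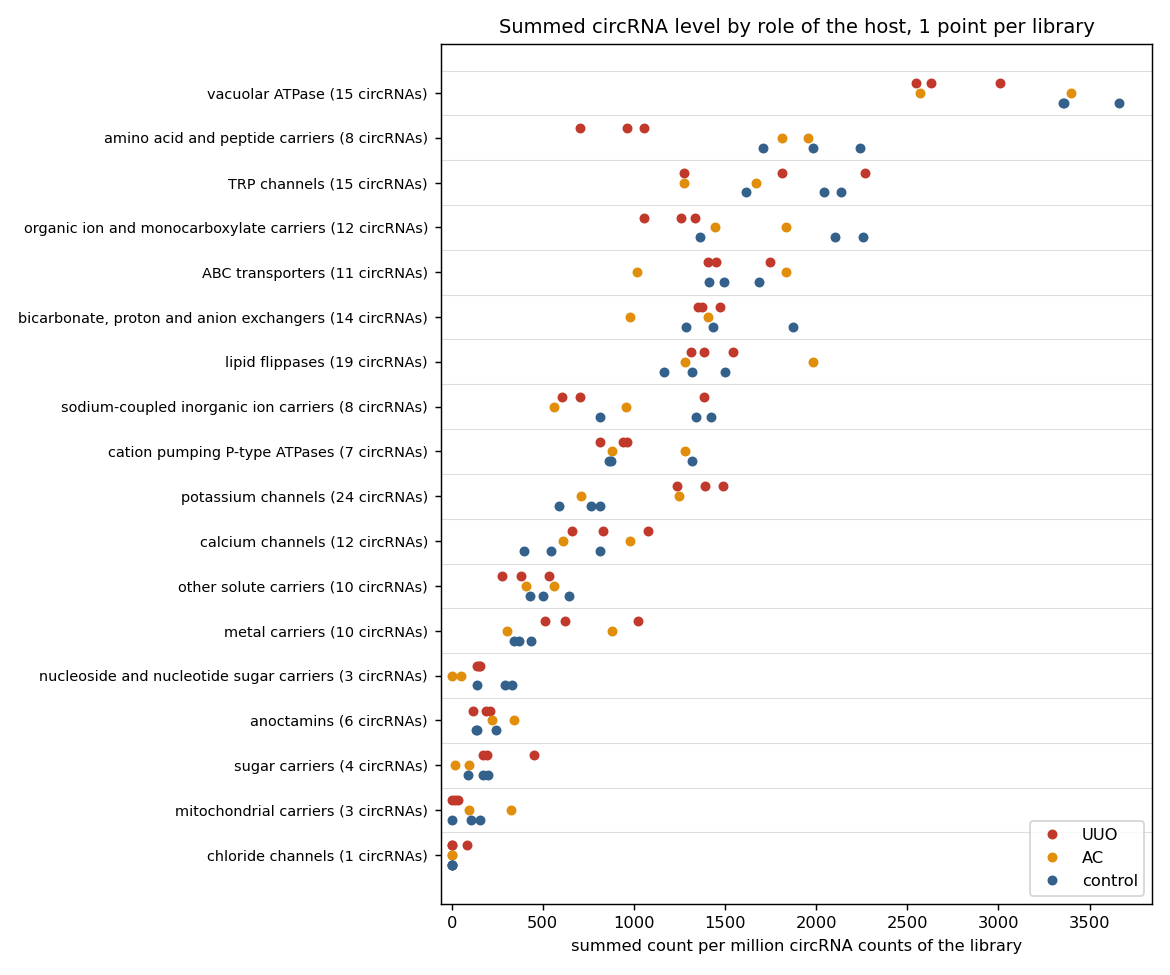
Summed circRNA counts as CPM of all circRNA counts in the library (horizontal axis) for each of the 18 roles of the hosts; every point is a library, with UUO, AC and control in separate rows of each role. Amino acid carriers, organic ion and monocarboxylate carriers and the vacuolar ATPase lie lower in UUO than in control libraries, and potassium channels and metal carriers higher. Of the counts of the amino acid carriers, the single Slc7a8 circRNA held 113 of 142 in UUO and 276 of 333 in control libraries. The sums were not tested.

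Among roles with no tested or few tested members, sums of rare circRNAs were uneven. Metal carriers (zinc and magnesium carriers of the Slc30 and Slc41 families) had 512 to 1020 CPM of all circRNA counts in UUO, 305 to 881 in AC and 341 to 434 in control libraries. The Slc41a2 sum over 5 circRNAs was 9, 19 and 10 in UUO, 9 and 9 in AC, and 4, 5 and 6 in control libraries, without passing (UUO 1.36, SE 0.73, edgeR adjusted p = 0.320). Carriers of the Slc35 family had 23 counts in UUO, 2 in AC and 41 in control libraries. Most came from Slc35f3, with 6, 8 and 8 counts in UUO, 0 and 2 in AC, and 6, 9 and 9 in control libraries. Slc9a7, a sodium-proton exchanger of the Golgi, had 4 listed circRNAs that summed to 6, 10 and 1 counts in UUO, 5 and 0 in AC, and 0, 3 and 0 in control libraries. The flippase gene Atp11b, also with 4, had sums of 1, 12 and 5 in UUO, 0 and 6 in AC, and 4, 1 and 4 in control libraries. Both overlapped between groups.

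Untested circRNAs are given by their counts, and those shown were picked for unequal counts. Slc45a4 had 6, 12 and 6 counts in UUO, 0 and 0 in AC, and 0, 2 and 1 in control libraries. Its ratio of UUO to control was 8.56 after scaling to depth, with an interval of 2.60 to 44.4. Slc25a30, a mitochondrial carrier, had 0 counts in all UUO libraries, 16 and 2 in AC, and 0, 10 and 6 in control libraries. It was at least 4.98-fold lower in UUO against a floor of 3 counts over that group. The bound takes the control counts as exact and leaves out the spread between libraries. Slc22a23 had 4, 0 and 1 counts in UUO, 0 and 1 in AC, and 1, 10 and 4 in control libraries. Of the 48 members above 0 in 1 library, 28 were in a UUO library, 9 in an AC library and 11 in a control library. That split was not counted over all listed circRNAs. The highest counts of members above 0 in 1 library were 14 for the Slc38a10 circRNA in AC replicate 2 and 10 for Atp6v1e1 in UUO replicate 1.

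Between the injuries themselves, UUO against AC, no member circRNA and no member host passed edgeR's test, and neither did any of all circRNAs or hosts tested (0%). DESeq2 called 0 member circRNAs too. At an unadjusted p under 0.05 there were 6 of 36 host sums (16.7%, with 5.99% of all hosts) and 6 of 35 member circRNAs (17.1%, with 5.57% over all tested circRNAs), 4 higher in UUO (3.06% over all) and 2 lower (2.52% over all). Slc4a4 mmu_circ_0012844, Abcd3, Atp1b3 and Trpm7 mmu_circ_0001064 were higher in UUO, and Atp2a2 and Slc43a2 lower. The Trpm7 circRNA was so in UUO replicate 3 alone, being at 0 in the other UUO libraries and in both AC libraries.

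Genes that regulate or assist transport were looked at through a separate list of 73 genes. Of these 18 had a listed circRNA, 47 circRNAs in all, and 10 circRNAs of 5 hosts were tested. The list was drawn up with earlier results of these data known, and circRNAs of 1 host are not independent. The counts that follow therefore only describe the list. In UUO 3 of the 10 fell and none rose, where 1.5% of all tested circRNAs fell and 2.86% rose. The median was -0.76, and 9 of the 10 values were below 0, against 49.4% over all. In AC 1 fell and none rose, where 1.43% of all fell and 1.9% rose. The AC median was -0.57 with all 10 below 0, against 50.6% over all. Klhl3 is the adaptor of a ubiquitin ligase that degrades WNK kinases, which control salt carriers of the distal nephron. Its circRNA mmu_circ_0004688 had 10, 18 and 12 counts in UUO, 2 and 17 in AC, and 54, 109 and 66 in control libraries. Every injured library was far under every control library. Its circRNAs mmu_circ_0004688 (UUO -2.38, edgeR adjusted p = 0.0132; AC -2.64, adjusted p = 0.0220) and, in UUO, mmu_circ_0004687 (-1.91, adjusted p = 0.0419) fell, and in AC mmu_circ_0004687 did not pass (-1.25, adjusted p = 0.316). Stk39 encodes SPAK, the kinase that phosphorylates those carriers. Its most abundant circRNA, mmu_circ_0001028, fell in UUO (-0.64, edgeR adjusted p = 0.0499), and in AC it did not pass (-0.53, adjusted p = 0.215). Stk39 mmu_circ_0001026, mmu_circ_0001027 and mmu_circ_0010116 did not pass in UUO (edgeR adjusted p = 0.914, 0.385 and 0.959). The calls in this list were not repeated with the alternatives.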

How the data were processed

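CircRNA counts of 8 mouse kidney libraries were used as the authors deposited them, without normalization. A second deposited table of signal values equals each count divided by 1 constant per library (8718 to 11941), as 100% of the values were whole within 0.01 when multiplied back. HISAT2, StringTie and mm9 are named, per the submitters' processing notes. For the circRNA caller, and for reads shared by circRNAs of 1 host, the method is not given in the sources used. Neither coordinates nor circRNA sequences are printed, as the genome at hand is of another build.

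Counts, per circRNA and summed per host, were tested over the whole table with edgeR 4.0.16 (quasi-likelihood, TMM) in R 4.3.3, all 8 libraries in 1 fit, after filterByExpr (minimum count 10, minimum total 15), which kept 82.5% to 84.8% of a library's counts. The 32 circRNAs with no host stayed out of the host sums. P-values were adjusted by Benjamini-Hochberg (threshold 0.05). Shares within a host were tested with diffSpliceDGE. SE is the size of the log2 fold change divided by √F, and CPM uses filtered totals and TMM factors. The biological coefficient of variation was 0.413 for circRNAs and 0.349 for hosts. Replicate pairs differed by 3.00 to 4.72 times sampling noise (chi-square per degree of freedom), so no library was a copy. The tests were checked on simulated counts. Alternatives included DESeq2 1.42.0 and limma-voom 3.58.1. Names in the text follow a written rule (called members, the 12 lowest p per comparison, the 10 most abundant, hosts with 4 or more listed circRNAs, 21 fixed genes, and low-count members for their counts). Results of 1 tested member are not reported here. The members and lists were chosen with earlier results of these data known. RefSeq (GRCm38.p6) served for names only: all 94 hosts matched.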

Additional observations from a re-analysis of the deposited data

How the results depend on the processing

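Of 936 repeated values of 58 named results, 928 kept their direction. Most of these results were named for a low p in these same libraries, so a kept direction was likely from the start. Of the 58, 5 were called, and the calls held less often than the directions. Called members were 1 in UUO and 1 in AC; with the replicate block (replicate number as a term) they were 0 and 0, with DESeq2 2 in UUO, and with only AC and control libraries or limma-voom 0 in AC. Called hosts in UUO, 3, became 1 by limma-voom and 1 without the most abundant circRNA of each host. That last setting removes every host with 1 circRNA, such as Slc7a8, so Slc7a8 could not be called there. Called hosts in AC, 0, became 1 with the deposited constant as library size and 2 with no filter. Leaving out 1 library in turn gave 0 to 1 called circRNAs in UUO, 0 in AC and 0 in UUO minus AC, 1 to 5 hosts in UUO and 0 to 2 in AC, and 0 changed shares. Same-numbered replicates deviated with correlations from -0.11 to 0.042 over 7 pairs. With so few libraries per group these values cannot settle whether the numbers mark pairs. The block changed no other count by over 1.5 times. Shares called over all tested circRNAs or hosts are not given for the alternative settings. The member calls counted there therefore do not set members apart from other circRNAs or hosts.

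The median member fold change moved to -0.55 in UUO and -0.48 in AC with the deposited constant, which shifted all circRNAs to -0.26 and -0.34, and to 0.050 and 0 with no filter. Only UUO and control libraries gave -0.36. The Atp2a2 host sum in AC reversed to 0.016 with library size alone. Leaving out 1 library in turn, values ran from -0.37 to 0.15 for that sum (above 0 without AC replicate 2 or control replicate 2), from -1.83 to 0.35 for the Slc38a10 sum in UUO (above 0 without UUO replicate 1 or 2 or control replicate 2), from -0.32 (without AC replicate 2) to 3.76 for the Kcnt2 sum in AC and from -3.48 (without AC replicate 2) to 6.35 for Kcnt2 mmu_circ_0000085 in AC. The cause was not tested. Depth is a limit: 147 of 182 members stayed under the filter, and AC has 2 libraries.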
